A study of Mus musculus with 6 samples.

Results

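Neurotrophins and their receptors were followed in dorsal root ganglia (DRGs) of control and Tlx3cko mice through 7 genes, which were taken by symbol from the 47937 rows of the count table. They comprise the Trk receptor genes Ntrk2 and Ntrk3, the p75 receptor gene Ngfr, the sorting receptor gene Sort1, and the ligand genes Bdnf, Ntf3 and Ntf5. RNA was sequenced from DRGs taken from cervical to lumbar levels of mice about 2 months of age, of the C57BL/6 strain, with 3 libraries per genotype. Tlx3cko mice carry Tlx3f/f together with SNS-cre, a Cre driven by the promoter of the sodium channel Nav1.8, which removes the transcription factor gene Tlx3 in most nociceptive neurons from late embryonic life and leaves it in the other cells of the ganglion. Controls are labelled wild type, while the floxed littermates without Cre were the controls of the study's behavioral tests. The question for these genes was whether their transcripts changed in DRGs after Tlx3 was lost from these neurons.

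Neurotrophins are secreted survival factors that act on sensory neurons in development and keep acting on them in the adult. Each is made as a proneurotrophin and cut to its mature form. Mature BDNF and NT-4, the product of Ntf5, bind TrkB (Ntrk2), and NT-3 (Ntf3) binds TrkC (Ntrk3), whereas p75 (Ngfr) binds all of them and joins with sortilin (Sort1) to bind the uncut forms. In the DRG, TrkB is known for light-touch neurons and TrkC for proprioceptive and other large myelinated neurons, and both lie largely outside the nociceptors. TrkB and p75 are also made by glia.

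The ligands are relatives of each other, as are the Trk receptors, so each count depends on reads being placed on the right gene. The coding stretches in which relatives were most alike were therefore read from the GENCODE M21 transcripts on GRCm38, and capitals mark bases that all members of the set share. The Ntrk2 stretch is chr13:59054401-59054460 on the plus strand (exon 15) and the Ntrk3 stretch is chr7:78250706-78250765 on the minus strand (exon 14), both in coding sequence.
Ntrk2: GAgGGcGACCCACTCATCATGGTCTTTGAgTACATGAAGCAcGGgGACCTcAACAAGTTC
Ntrk3: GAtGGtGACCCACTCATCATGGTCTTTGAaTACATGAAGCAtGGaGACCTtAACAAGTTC

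In this window 54 of 60 bases were the same, and the longest identical run between these coding sequences was 23 bases. The ligand stretches lie at chr2:109723998-109724057 on the plus strand (Bdnf, exon 2), chr6:126101824-126101883 on the minus strand (Ntf3, exon 3) and chr7:45415918-45415977 on the plus strand (Ntf5, exon 3), again in coding sequence.
Bdnf: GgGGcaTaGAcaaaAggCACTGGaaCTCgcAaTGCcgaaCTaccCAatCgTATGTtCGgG
Ntf3: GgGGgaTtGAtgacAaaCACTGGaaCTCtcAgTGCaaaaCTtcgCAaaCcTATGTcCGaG
Ntf5: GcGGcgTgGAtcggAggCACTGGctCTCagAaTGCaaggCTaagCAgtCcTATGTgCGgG

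All 3 ligands shared 33 of these 60 bases, and the longest identical run in any pair was 18 bases, between Ntf3 and Ntf5. None of the 7 genes was joined to another of them by a shared stretch of 100 bases or more at 98% identity. Such stretches did join Bdnf to Gm45346 (502 bases) and Sort1 to Gm12523 (339 bases), which overlap them on the opposite strand and cover 14.4% and 4.5% of their exonic bases. Reads of such partners cannot be told apart if the counting did not use strand. Ntrk3 shares 121 bases with Vmn1r168, which had 0 counts in each library. Gm45346 had no row under its symbol in the count table, so its counts cannot be given. Gm12523 had between 122 and 307 counts per library, beside 928 to 1551 for Sort1. Each gene has 1 row in the table, so truncated and full-length receptors, and the Bdnf transcripts that start at the 7 sites listed by RefSeq, were counted together.

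The libraries held between 11458299 and 18775628 counts, and values below are counts scaled by TMM to a common effective library size of 14974185 (normalized counts). The targeted gene Tlx3 had 1973, 2256 and 1941 normalized counts in control replicates 1, 2 and 3 and 1652, 1380 and 1452 in Tlx3cko replicates 1, 2 and 3. Tlx3 was thus lower in every Tlx3cko library, at a log2 fold change of -0.46 ± 0.09 (SE, adjusted p = 0.0122 by the quasi-likelihood test of edgeR). Its Tlx3cko mean was 72.7% of the control mean, so most of the counted Tlx3 transcript was still present in the bulk RNA. Xist gave 591 and 493 counts and Ddx3y gave 0 in the first 2 controls, while the remaining 4 libraries held at most 2 for Xist and no fewer than 273 for Ddx3y, so that the sole male control was replicate 3 and all Tlx3cko libraries were male. The 11 markers of sensory neurons in general summed to between 145600 and 153400 normalized counts in the controls against 149300 and 163600 in the Tlx3cko libraries, with Syt1 lower and Map2 higher. Skeletal muscle markers summed to 102.1 to 1567 in control and 1323 to 2785 in Tlx3cko libraries, blood markers to 1435 to 3701 and 1635 to 2246, and immune markers to 563.2 to 808.4 and 512 to 638.7. Among these, Myh4 of muscle was higher (20% of its list, beside 1.69% of all genes tested). Slc4a1 of red blood cells was lower (20% of its list, beside 2.56%), and 0 of 7 immune markers passed the threshold.

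No neurotrophin or receptor gene among the 6 that were tested differed past the threshold in Tlx3cko DRGs. Of the 7 genes, 6 had at least 10 counts over the 6 libraries and were tested, and 0 were lower and 0 higher at an adjusted p under 0.05 by edgeR, by DESeq2 or by limma-voom. At an unadjusted p under 0.05 the count was 2 with each of these tools (Ntrk3 and Sort1, both higher). By edgeR, 2910 of all 20006 genes tested had an unadjusted p under 0.05. At the adjusted threshold, 2.56% of all genes tested were lower, 1.69% were higher and 4.25% changed in either direction. These shares include genes with as few as 10 counts over the 6 libraries, for which a change is harder to call. The 512 lower and 339 higher genes became 546 and 184 when libraries were scaled to the markers of sensory neurons. The median log2 fold change was 0.08 for the 6 genes and 0.00 for all genes tested. In 1 of the 6 tested genes (16.7%) the groups did not overlap, beside 19.7% of all genes tested. With 3 mice against 3, an exact permutation test of a single gene cannot give a p under 0.1. Nothing in the labels states that the libraries are from separate mice beyond the numbered titles, while the study's methods count 3 mice per genotype, and the p-values measure the spread between these libraries, which may be technical.

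**Figure D1:**
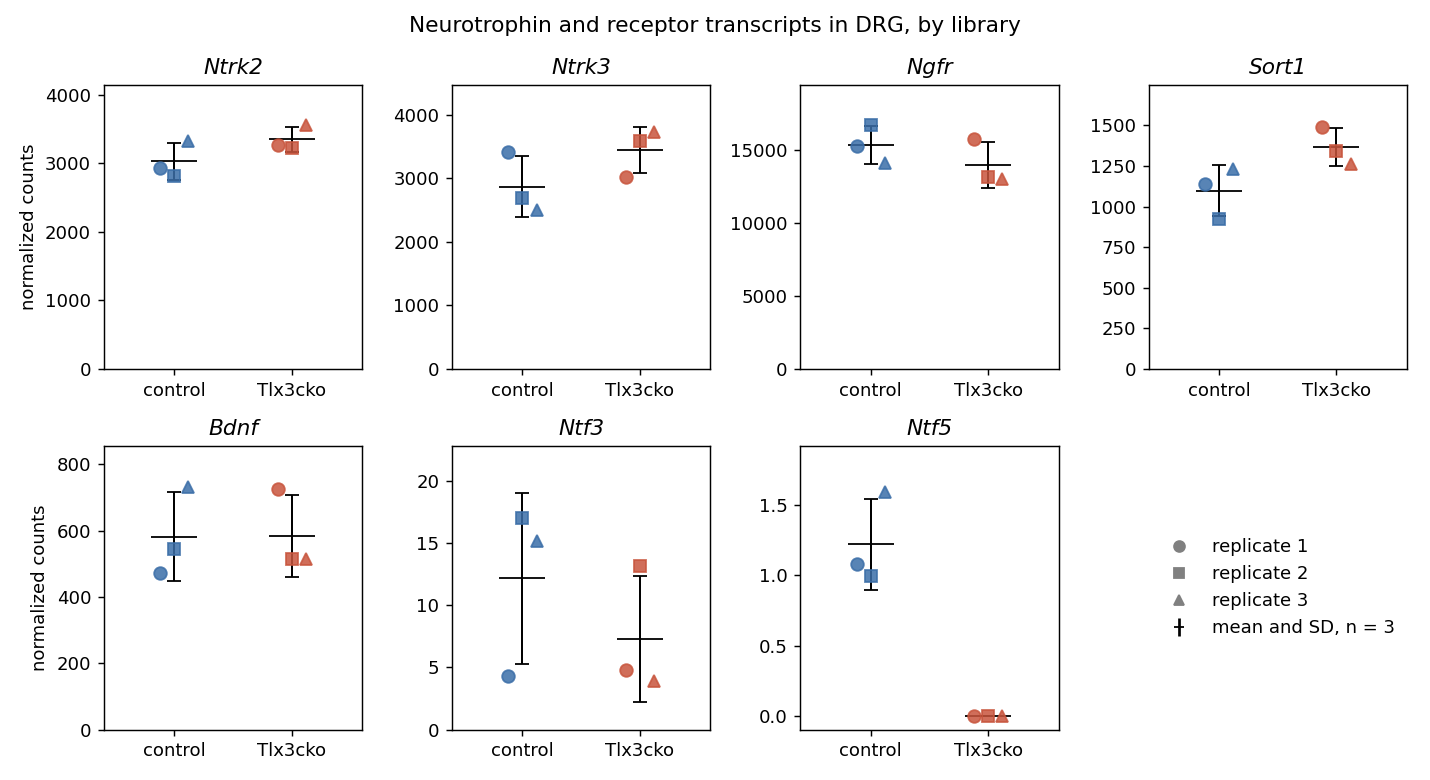
Normalized counts of each gene (vertical axis, from 0 except a small margin for Ntf5) in the 3 control and 3 Tlx3cko libraries, with symbols for the replicate and black bars for the mean and SD (n = 3). The Sort1 values of the groups are apart, those of Ntrk2, Ntrk3, Ngfr, Bdnf and Ntf3 overlap, and Ntf5 is below 2 normalized counts in every library.

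Among the Trk receptors, Ntrk2 (ENSMUSG00000055254), the gene of TrkB at chr13:58806569-59133970 (plus strand), had 2937, 2819 and 3334 normalized counts in the controls against 3263, 3232 and 3566 in the Tlx3cko libraries. The third control lay above 2 of the 3 Tlx3cko values, so the groups overlapped. The means were 3030 ± 270 (SD, n = 3) and 3353 ± 184, a log2 fold change of 0.15 with a 95% interval of -0.03 to 0.33 (adjusted p = 0.484 from edgeR). On the linear scale this interval runs from 0.979 to 1.26 times the control level. With sex as a term the log2 fold change of Ntrk2 was 0.01. Of the 4 markers listed for the TrkB class of touch neurons, 1 was higher past the threshold (25%, beside 1.69% of all genes tested). It was Nefh, a heavy neurofilament gene of myelinated neurons in general (log2 fold change 0.36, adjusted p = 0.00532 from edgeR). Cacna1h (log2 fold change -0.18) and Colq (-0.19) had lower means and Necab2 (0.24) a higher mean, and these did not pass. The sum of these markers was 23680 to 24240 in control and 28940 to 31170 in Tlx3cko libraries, nearly all of it Nefh.

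Ntrk3 (ENSMUSG00000059146), the gene of TrkC at chr7:78175959-78738012 (minus strand), had 3410, 2682 and 2505 normalized counts in the controls against 3027, 3588 and 3722 in the Tlx3cko libraries. Control replicate 1 was higher than Tlx3cko replicate 1, and the other controls were below every Tlx3cko value. The log2 fold change was 0.27, with a 95% interval of 0.02 to 0.51, or 1.01 to 1.42 times control. In edgeR the unadjusted value of 0.0363 became an adjusted p of 0.293 across the table, short of the threshold. Without control replicate 1 the log2 fold change was 0.41 (edgeR, adjusted p = 0.0366), and without a filter on low counts it was 0.26 (adjusted p = 0.0416), so the call for Ntrk3 depended on that library and on the filter. With sex as a term the log2 fold change was 0.46 (adjusted p = 0.199). The adjusted p over all 15 alternatives ranged from 0.0366 to 0.644.

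The 8 markers listed for the TrkC classes of large neurons are shown beside Ntrk3. The median log2 fold change of these markers was 0.29. Past the threshold, 3 of the 8 were higher (37.5%, beside 1.69% of all genes tested), namely Whrn, Pvalb and Calb1, with 0 lower. The calls of these markers, like that of Nefh, were not followed in the alternatives, such as sex as a term. The 8 markers summed to 4394 to 5253 in control and 7934 to 8352 in Tlx3cko libraries, and without Whrn the other 7 summed to 3746 to 4475 and 4769 to 4862. Whrn, a scaffold gene known from proprioceptors, had 709.5 ± 65.3 normalized counts in control against 3309 ± 172 in Tlx3cko DRGs (SD, n = 3 each). Its log2 fold change was 2.22 (adjusted p = 2.6e-08 from edgeR). Pvalb, the gene of a calcium buffer of proprioceptors, had log2 fold change 0.59 and Calb1, the gene of another calcium buffer, 0.51. Runx3 and Etv1, transcription factor genes of proprioceptors, had log2 fold changes of 0.19 and -0.36 and did not pass (adjusted p = 0.649 and 0.26). In these bulk samples, fewer or more cells of a class cannot be told apart from less or more RNA per cell.

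Per library, the Ntrk3 to Ntrk2 ratio per exonic length was 0.742, 0.608 and 0.48 in the controls against 0.593, 0.71 and 0.668 in the Tlx3cko libraries. Both genes of a ratio come from the same library, so the scaling between libraries cancels. The ratios of the groups overlapped (exact two-sided permutation test, p = 0.7), and the ratio was chosen after the values were seen.

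The receptors of uncut neurotrophins gave one gene with lower and one with higher means. Ngfr (ENSMUSG00000000120), the gene of p75 at chr11:95568818-95587735 (minus strand), had 15290, 16730 and 14100 normalized counts in the controls against 15800, 13200 and 13010 in the Tlx3cko libraries. Tlx3cko replicate 1 lay within the range of the controls and the other Tlx3cko libraries lay below it. The log2 fold change was -0.13 with a 95% interval of -0.33 to 0.06, or 0.796 to 1.04 times the control level (adjusted p = 0.575 from edgeR). With sex as a term the estimate was -0.01.

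Because p75 is also a gene of glia and of connective tissue, the sums of their markers are given beside it. Satellite glia markers summed to 38740 to 47590 normalized counts in control and 45100 to 50510 in Tlx3cko libraries. Of these, 1 of 6 was higher (16.7%, beside 1.69% of all genes tested), namely Cadm2, an adhesion gene. Schwann cell markers summed to 36910 to 43880 and 39300 to 44380, with 1 of 8 higher (12.5%, beside 1.69%). It was Egr2, a transcription factor gene of myelinating Schwann cells. Pmp22 (log2 fold change -0.31) and Sox10 (-0.11) had lower means and did not pass, beside a list median of 0.15. Fibroblast and vessel wall markers summed to 5386 to 5604 in control and 4459 to 4774 in Tlx3cko libraries, without overlap. Dcn, Col1a2 and Col1a1 had the most counts in this sum. Of the 10 listed, Pdgfra, Col1a1 and Dcn were lower (30%, beside 2.56% of all genes tested) and the endothelial gene Pecam1 was higher (10%, beside 1.69%). The rest did not pass. Of these, Cdh5 (log2 fold change 0.41), Myh11 (0.69) and Acta2 (0.17) had higher means, and Col1a2 (-0.22), Lum (-0.42) and Pdgfrb (-0.53) lower ones. The part of these cells in the Ngfr values was not tested.

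Sort1 (ENSMUSG00000068747), at chr3:108284082-108361511 (plus strand), was the sole tested gene whose groups did not overlap. It encodes sortilin, which sorts proteins to lysosomes and to regulated secretion besides serving with p75. Sort1 had 1139, 925.5 and 1230 normalized counts in the controls against 1493, 1345 and 1265 in the Tlx3cko libraries, so that the lowest Tlx3cko value was just above the highest control. Whether reads of Gm12523, which overlaps Sort1 on the opposite strand, add to these values or to their separation was not tested. The log2 fold change of 0.32 (standard error 0.11, 95% interval 0.08 to 0.55, or 1.06 to 1.46 times control) had an unadjusted p of 0.0135 and missed the threshold over all genes (adjusted p = 0.164 from edgeR). Without a filter on low counts the adjusted p of Sort1 was 0.0294, in an edgeR fit that called more genes in all (858 lower and 671 higher). The highest control was the male one, and with sex as a term the log2 fold change was 0.15 (adjusted p = 0.808).

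The ratio of Sort1 to Ngfr per exonic length was 0.0339, 0.0252 and 0.0397 in control and 0.043, 0.0464 and 0.0442 in Tlx3cko libraries. The means of 0.0329 ± 0.00731 and 0.0445 ± 0.00172 (SD, n = 3 each) came without overlap (p = 0.1 by the exact permutation test, two-sided, which is the lowest value 3 against 3 libraries can give). This ratio, too, was chosen after the values were seen, and the male control lay closest to the Tlx3cko libraries.

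**Figure D2:**
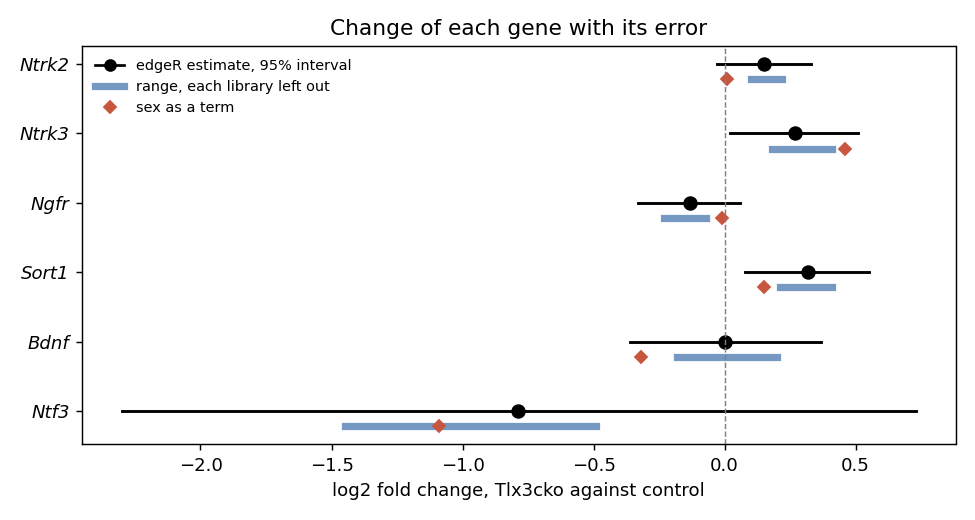
Log2 fold change of Tlx3cko against control for the 6 genes tested (horizontal axis), with the edgeR estimate and its 95% interval in black, the range over the 6 fits that left out 1 library in blue, and the estimate with sex as a term as a diamond. The intervals of Ntrk3 and Sort1 lie just above 0 before adjustment, and that of Ntf3 is the widest, from -2.30 to 0.73.

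Of the ligand genes, Bdnf was the one well measured. Bdnf (ENSMUSG00000048482), at chr2:109674700-109727007 (plus strand), had 470.6, 543.6 and 729.9 normalized counts in the controls against 724.7, 513.1 and 512.7 in the Tlx3cko libraries. One library of each genotype was high and the others were close to each other. The means were 581.3 ± 134 and 583.5 ± 122 (SD, n = 3 each), and the log2 fold change was 0.00 with a 95% interval of -0.36 to 0.37, or 0.779 to 1.29 times the control level (adjusted p = 0.995 from edgeR). The highest control was the male one, and with sex as a term the estimate became -0.32 ± 0.19 (log2, SE; adjusted p = 0.633), so the direction of Bdnf was not fixed.

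Ntf3 (ENSMUSG00000049107), at chr6:126101412-126166910 (minus strand), had few reads, with 4, 17 and 19 counts in control and 5, 10 and 4 counts in Tlx3cko libraries. Control replicate 1 was as low as Tlx3cko replicates 1 and 3. The log2 fold change of -0.79 had a 95% interval from -2.30 to 0.73, that is 0.203 to 1.66 times control (adjusted p = 0.702 from edgeR), so neither direction was shown. With 1 library left out the estimate ran from -1.45 (without Tlx3cko replicate 2) to -0.49 (without control replicate 2 or Tlx3cko replicate 3). Ntf5 (ENSMUSG00000074121), at chr7:45413695-45417179 (plus strand), had 1, 1 and 2 counts in control and 0 in each Tlx3cko library, and was not tested. From counting error alone, a count of 0 leaves room for an expected count of up to about 3. The lack of overlap of Ntf5 therefore rests on 4 reads.

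Levels were compared between genes as RPKM, that is reads scaled to exonic length and to the effective library size, since longer transcripts give more reads. In control DRGs the means were 298 ± 25.5 for Ngfr, 10.5 ± 0.935 for Ntrk2, 9.69 ± 1.38 for Sort1, 6.34 ± 1.06 for Ntrk3, 6.24 ± 1.44 for Bdnf, 0.473 ± 0.266 for Ntf3 and 0.0308 ± 0.00816 for Ntf5 (RPKM, SD, n = 3 each). Ntrk2 and Sort1 overlapped, as did Ntrk3 and Bdnf, while Ngfr stood above all others and Ntf3 and Ntf5 below them. In Tlx3cko DRGs the means were 271 ± 30.3 for Ngfr, 11.6 ± 0.638 for Ntrk2, 12.1 ± 1.02 for Sort1, 7.63 ± 0.816 for Ntrk3, 6.27 ± 1.31 for Bdnf and 0.284 ± 0.198 for Ntf3. The order in the middle depended on the length used. With the longest protein-coding transcript in place of all exonic bases, a choice made after seeing the data, Ntrk2 had 21.5 to 25.5 RPKM in control and was above Ntrk3 (8.49 to 11.6) and Sort1, which then overlapped each other.

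**Figure D3:**
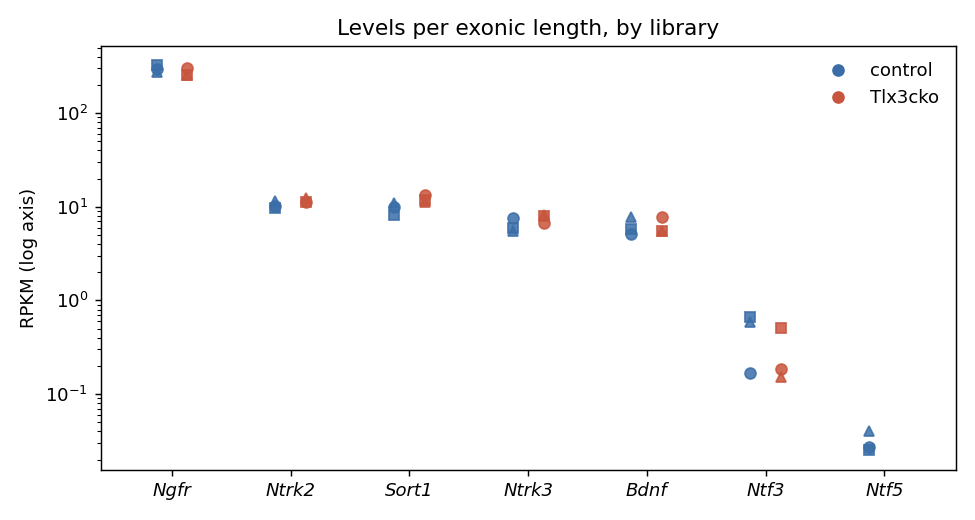
Level per exonic length (RPKM, log axis) of each gene in each control (blue) and Tlx3cko (red) library, with symbols for replicates 1 (circle), 2 (square) and 3 (triangle). Ngfr sits near 300 and apart from the others, and the 3 Tlx3cko values of Ntf5, all 0, cannot be drawn on this axis.

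Around the receptors, 5 further lists held 90 genes, of which 87 were tested. In the 4 lists of co-receptors, processing enzymes, adaptors and p75 interactors, 69 genes were tested. Of these, 5 were lower (7.25%, beside 2.56% of all genes tested) and 2 were higher (2.90%, beside 1.69%). The shares of all genes include genes with far fewer reads than most list genes, and a comparison at matched levels was not made. Of 18 inducible genes, 4 were higher (22.2%, beside 1.69%). Among sortilin relatives and co-receptors, 1 of 13 was lower and 1 was higher (7.69% each, beside 2.56% and 1.69% of all genes tested). The median log2 fold change was 0.06. Rtn4r had the most negative log2 fold change of this list, -0.74, without overlap of the groups, and fell short of the threshold (adjusted p = 0.0587 from edgeR). The lower count of the list was 2 with DESeq2, with limma-voom or without a filter on low counts. Lingo1, a partner of p75 in the receptor for myelin inhibitors, fell from a mean of 1886 ± 112 in control to 1496 ± 93.8 in Tlx3cko DRGs (normalized counts, SD, n = 3 each; log2 fold change -0.33, adjusted p = 0.0402, edgeR). Islr2, the gene of a Trk- and Ret-binding surface protein known as Linx, had 174.9, 110.7 and 193.8 normalized counts in the controls against 294.5, 342.5 and 458.6 in the Tlx3cko libraries (log2 fold change 1.19, adjusted p = 0.00523). Every Tlx3cko value of Islr2 was thus above every control. The sortilin relatives Sorl1, Sorcs1, Sorcs2 and Sorcs3 had log2 fold changes between 0.01 and 0.33 and did not pass. The call of Lingo1 was lost without control replicate 1 (adjusted p = 0.0712), control replicate 2 (0.152), Tlx3cko replicate 2 (0.202) or Tlx3cko replicate 3 (0.176), and with sex as a term both calls were lost (0.462 for Lingo1 and 0.178 for Islr2). Islr2 shares up to 181 near-identical bases with Islr, which had 276 to 627 counts per library.

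Among enzymes and factors that process or release neurotrophins, 1 of 12 tested genes was lower (8.33%, beside 2.56% of all genes tested) and 0 were higher. It was Cpe, the gene of carboxypeptidase E, which trims propeptides and helps sort uncut BDNF into secretory granules. Cpe had 15830, 17990 and 17460 normalized counts in the controls against 13250, 13150 and 13030 in the Tlx3cko libraries (log2 fold change -0.38 ± 0.07, SE; edgeR, adjusted p = 0.00593). The Tlx3cko values lay close together and below every control, and Cpe passed the threshold in all 15 alternatives. Furin and Pcsk7, genes of proprotein convertases, had log2 fold changes of -0.11 and 0.06 and did not pass, and Pcsk1, a convertase gene of secretory granules, had 0.44 (adjusted p = 0.0682). Plg, Mmp3 and Mmp7 had too few counts to be tested.

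Of the 28 genes for adaptors and proximal steps of Trk signalling, 2 were lower (7.14%, beside 2.56% of all genes tested). In the same list 1 was higher (3.57%, beside 1.69%), and the median log2 fold change was 0.00. Gab1, the gene of a docking protein that links receptor kinases to PI3-kinase and SHP2, had 962.8, 810.8 and 783.3 normalized counts in the controls against 602.5, 538 and 539.3 in the Tlx3cko libraries (log2 fold change -0.60 ± 0.11, SE; edgeR, adjusted p = 0.0054). The groups were well apart, and among the 15 alternatives the call was lost only with sex as a term (adjusted p = 0.144). Gab1 shares 273 near-identical bases with Gm31105, which had no row under its symbol in the count table. Shc1, the gene of an adaptor that binds activated Trk receptors, fell from 3643 ± 611 in control to 2587 ± 139 (normalized counts) (log2 fold change -0.49, adjusted p = 0.0196), and Sh2b3, a member of a family of Trk-binding adaptors, rose from 223.3 ± 40.8 to 346.2 ± 50.7 (log2 fold change 0.64, adjusted p = 0.0436). The Shc1 call was lost without control replicate 2 (0.0897), control replicate 3 (0.0698), Tlx3cko replicate 2 (0.126) or Tlx3cko replicate 3 (0.0669), and that of Sh2b3 without control replicate 1 (0.0977), control replicate 3 (0.16), Tlx3cko replicate 1 (0.15), replicate 2 (0.103) or replicate 3 (0.0627). Sh2b3 also lost it with scaling to the markers of sensory neurons (0.0605). With sex as a term the adjusted p was 0.119 for Shc1 and 0.065 for Sh2b3. Frs2, Grb2, Plcg1 and Kidins220, which act directly on Trk receptors or with them, did not pass (log2 fold changes between -0.13 and 0.24). AC123951.1 shares up to 919 near-identical bases with Shc1 and had no row under its symbol in the count table, so the Shc1 counts are uncertain.

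Of the 16 p75 interactors, 1 was lower (6.25%, beside 2.56% of all genes tested) and 0 were higher. Bex3, an X-linked gene whose product binds the p75 death domain, had 2163, 2498 and 2845 normalized counts in the controls against 1797, 1609 and 1487 in the Tlx3cko libraries (log2 fold change -0.62 ± 0.11, SE; edgeR, adjusted p = 0.00401). Every Tlx3cko value was below every control, the male control was the highest of all, and the call held in all 15 alternatives. Up to 222 bases are shared nearly identically with Bex2, which had 1284 to 2476 counts per library. Maged1 and Ndn, MAGE family genes whose products bind p75, had log2 fold changes of 0.06 and -0.09 and did not pass.

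Among the 18 genes that neurotrophins can induce or that dampen the response, 4 were higher (22.2%, beside 1.69% of all genes tested) and 0 were lower, with a median of 0.19. Arc, an activity-regulated gene of synapses, had 76.6, 63.8 and 70.2 normalized counts in the controls against 121.3, 147 and 141.7 in the Tlx3cko libraries (log2 fold change 0.96, adjusted p = 0.0119 from edgeR). Egr1, an immediate early transcription factor gene, had 204, 159.6 and 126.8 in control and 264.7, 1167 and 341.5 in Tlx3cko libraries (log2 fold change 1.85, adjusted p = 0.0302). One library, Tlx3cko replicate 2, set most of the size of this difference, which was 0.91 without it. The same library was the highest of the 6 for the immediate early genes Fos (392.3 normalized counts, beside 92.82 to 135.7 in the others), Junb (982.8, beside 401.2 to 619.8) and Egr3 (141.7, beside 9.714 to 54.13), which did not pass the threshold. Its relative Egr2, already named as a Schwann cell marker, had log2 fold change 0.81 (adjusted p = 0.0241), and Spred1, an inhibitor of the MAP kinase pathway, 0.36 (adjusted p = 0.0381).

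The number of inducible genes called varied with the libraries and settings. The lower count was 0 in the main fit and 1 without control replicate 1. The higher count was 0 without control replicate 2 and 0 with sex as a term, 1 without Tlx3cko replicate 2, without Tlx3cko replicate 3 or with scaling to the markers of sensory neurons, 2 without control replicate 3, and 8 without a filter on low counts. Arc lost its call without control replicate 2 (adjusted p = 0.0528), Tlx3cko replicate 2 (0.0564) or Tlx3cko replicate 3 (0.0569), and Egr1 without control replicate 2 (0.122) or 3 (0.133). DESeq2 (adjusted p = 0.0861) and limma-voom (0.0991) did not call Egr1. With scaling to the markers of sensory neurons the adjusted p was 0.0523 for Egr1, 0.0567 for Egr2 and 0.147 for Spred1 (edgeR). Egr2 lost it without control replicate 1 (0.0586) or 2 (0.099) or Tlx3cko replicate 2 (0.105) or 3 (0.117), and Spred1 without control replicate 2 (0.127) or 3 (0.121) or Tlx3cko replicate 1 (0.0615), 2 (0.093) or 3 (0.178). With sex as a term the adjusted p was 0.152 for Arc, 0.171 for Egr1, 0.378 for Egr2 and 0.185 for Spred1. Vgf, the gene of a secreted peptide precursor that neurotrophins induce, averaged 4527 normalized counts in the controls against 4570 in Tlx3cko DRGs (log2 fold change 0.01, adjusted p = 0.984 from edgeR). The feedback genes Dusp6, Spry2 and Spry4 did not pass (log2 fold changes between -0.10 and 0.21). Dusp4 (-0.31), Dusp5 (-0.35) and Etv4 (-0.51) had lower means and did not pass either. Nor did Etv5 (0.28), Junb (0.52), Fos (1.05) and Egr3 (1.34), whose means were higher.

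**Figure D4:**
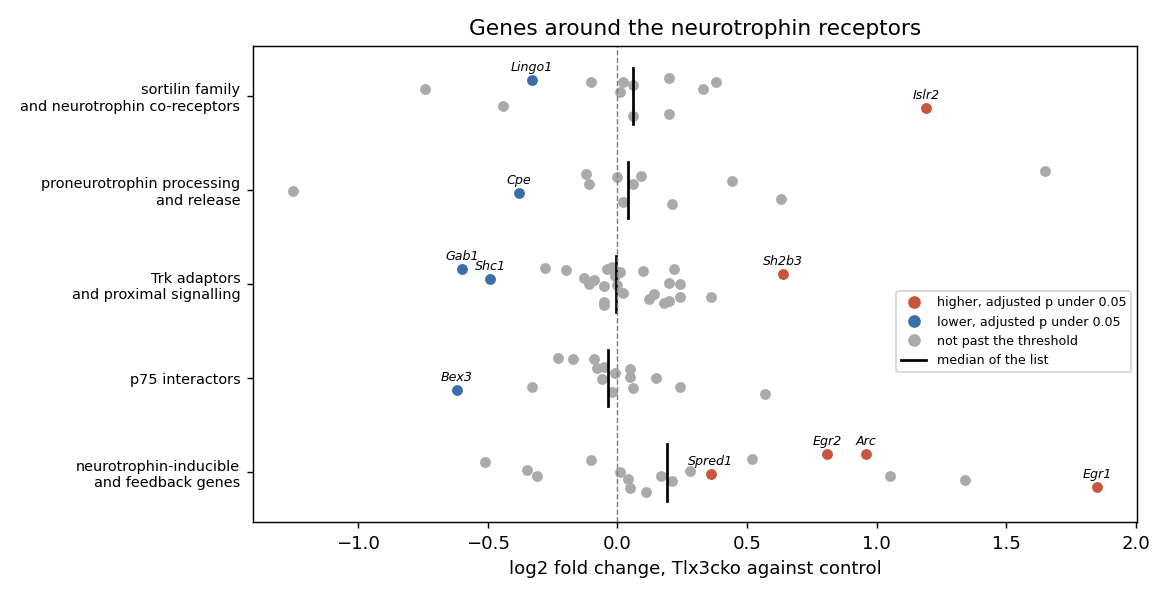
Log2 fold change of Tlx3cko against control (horizontal axis) for each tested gene of the 5 lists (rows, with points spread vertically for legibility). Red and blue points passed the threshold as higher or lower, grey points did not, and black lines give list medians, between -0.04 and 0.19.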

How the data were processed

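The authors deposited 1 table of raw read counts per gene without normalization, and per the labels' processing notes it was made with STAR 2.5.2a on mm10. The counting program, its annotation and its use of strand are not given in the sources used here. Symbols and positions came from GENCODE M21 on GRCm38, the same build. Some genes of the family are not reported here.

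Counts of genes with at least 10 counts in total were scaled with TMM, then compared in edgeR 4.0.16 (R 4.3.3; glmQLFit and glmQLFTest, genotype as the single term), with Benjamini-Hochberg adjustment over all 20006 genes and a threshold of 0.05. Standard errors came from the fold change and F statistic, and 95% intervals used the moderated degrees of freedom. The test was checked on simulated counts. Near-identical transcripts were searched with blastn 2.17.0+. Replicate libraries differed by far more than sampling noise (chi-square per degree of freedom 4.32 to 10.13). Alternatives used DESeq2 1.42.0, limma 3.58.1, other scalings and filters, blocks, a sex term (from Xist and Ddx3y, leaving 1 male control), and each library left out.

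The 7 genes, the lists and the tests were chosen with earlier results of these data known. Of list genes, those past the threshold are named (at most 8 per list), with a few others chosen after their values were seen. The replicate numbers did not pair the libraries.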

Additional observations from a re-analysis of the deposited data

How the results depend on the processing

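Ntrk2, Ntrk3, Ngfr, Ntf3 and Sort1 kept their direction in all 15 alternatives, though with sex as a term Ntrk2 (0.01) and Ngfr (-0.01) were close to 0, and Ntrk2, Ngfr, Bdnf and Ntf3 stayed short of the threshold in each. Without a filter on low counts, 2 of the genes were higher past it, Ntrk3 (log2 fold change 0.26, adjusted p = 0.0416 from edgeR) and Sort1 (0.31, adjusted p = 0.0294), while 858 genes in all were lower and 671 higher. In that fit the standard error of Egr1 was 0.14, beside 0.44 in the main fit, and that of Arc was 0.24, beside 0.19. The fit without a filter thus weighed the spread between libraries differently from the main fit. With each library left out in turn, 0 to 1 of the genes were higher past the threshold, Ntrk3 ranged from 0.18 to 0.41, Bdnf from -0.18 to 0.20, and all genes called from 310 to 530 lower and from 175 to 408 higher. Bdnf, whose estimate is near 0, turned its sign in 6 alternatives, of which 3 left out a library (control replicate 1 or 2, or Tlx3cko replicate 1) and the others were library totals (0.00), scaling to sensory neuron markers (-0.05, with 184 genes higher in all) and sex as a term (-0.32, with 334 genes lower and 153 higher in all). The causes were not tested, and the sex term leaves 1 male control. With the replicate block, 462 genes were lower and 308 higher, 0 of the neurotrophin and receptor genes passed, and Lingo1 (adjusted p = 0.0731) and Spred1 (0.0785) did not. Deviations of same-numbered libraries correlated at -0.10, -0.06 and -0.07, so the numbers did not pair them. Ntf3 had at most 19 counts in any library and Ntf5 at most 2.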

Other observations

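For each of the 5 genes that averaged 50 normalized counts or more, the 3 genes most like it by Pearson correlation of log2 normalized counts over the 6 libraries are given as a description. They were Ints6 (r = 0.989), Supt5 (0.984) and Ibtk (0.983) for Ntrk2, and 4930513N10Rik (0.996), Mrps34 (0.994) and A930001C03Rik (0.994) for Ntrk3. For Ngfr they were Erbb2 (0.995), Rab11b (0.992) and Ap2s1 (0.990), and for Bdnf they were Txnl1 (0.997), Gmfb (0.993) and Coro1c (0.985). For Sort1 they were Slc5a7 (0.992), Ell2 (0.983) and Trim2 (0.976). The points share their libraries and depth. None of these 15 genes passed the threshold between genotypes, with adjusted p from 0.274 to 0.988 (edgeR).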
